A study of Mus musculus with 6 samples.

Results

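CD40 ligand (Cd40lg) and 9 other genes of the tumour necrosis factor (TNF) ligand and receptor families were followed through 6 mouse T cell samples. The 5 ligands were Cd40lg, Tnf, Fasl, Tnfsf11 and Tnfsf14, and the 5 receptors were Tnfrsf4, Tnfrsf9, Tnfrsf18, Tnfrsf1b and Cd27. Members were found by gene symbol in the platform annotation, and of several probes the one with the highest mean signal over the 6 arrays stood for its gene. The 10 genes had 20 probes among the 45281 on the array, 18 of which were detected on at least 1 array. The detected probes left 9 of the 10 genes among 10679 features tested. Cd40lg was the gene left out.

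The T cells came from spleen and lymph node of male C57BL/6 mice. Naïve mice were healthy and carried no graft. The other mice carried tail skin from BDF1 donors, a cross of C57BL/6 and DBA/2. Rejecting mice received no treatment and were sampled on day 7. Tolerant mice received a donor specific transfusion and MR-1, an antibody against CD40 ligand, and were sampled on day 100, so treatment and time after grafting cannot be told apart. All 6 samples shared a coculture of 20 to 21 hours with T cell-depleted splenocytes of the donor strain, after which the T cells were sorted by CD69, a surface marker of early activation. The sort is described with CD3 and CD69, and the treatment text writes the same gate for both fractions, so the fraction was taken from the sample titles. One Illumina MouseWG-6 array was made per status and fraction, so no combination was repeated. Whether a sample pooled several mice is not given in the sources used here. The sorted fractions are mixtures in which fewer cells of a type and less RNA per cell cannot be told apart.

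TNF superfamily ligands are mostly trimeric membrane proteins, and several of them are cut from the cell surface to act at a distance. Their receptors recruit TRAF adaptors or death domain proteins and lead to NF-κB activation, survival or cell death. On T cells, CD40 ligand appears after antigen contact and licenses antigen-presenting cells through CD40, while OX40 (Tnfrsf4), 4-1BB (Tnfrsf9) and GITR (Tnfrsf18) give the activated T cell a costimulatory signal. Blockade of CD40 ligand together with donor cells is a classical way to induce transplantation tolerance in mice.

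Between 12669 and 13469 probes were detected per array at a detection p under 0.01, and array medians of the non-normalized signal ran from 161.5 to 174.2. The sort marker Cd69 was higher in CD69+ cells, by 1.53 on the log2 scale (SE 0.21, limma adjusted p = 0.00342). Its log2 level was 12.53 in naïve, 11.21 in tolerant and 12.65 in rejecting CD69- cells, so the tolerant CD69- sample was lowest. Of the T cell markers, 7 of 8 with a probe were measured, Cd8a was not detected, and 6 fell in CD69+ cells. With array medians centred 5 fell, Cd4 losing its call. Of all features, 33.1% passed as lower in CD69+ cells. All 7 macrophage, monocyte and dendritic cell markers with a probe and all 5 platelet markers were undetected on every array. Of the B cell markers, Ms4a1, Pax5, Cd22 and Ebf1 were undetected, while Cd79b and Blk were measured. Haemoglobin genes (3 measured) were lower in CD69+ than CD69- cells, and their summed non-normalized signal ran from 1890 in tolerant to 6268 in naïve CD69+ cells and from 2870 in tolerant to 37137 in naïve CD69- cells. The part of these cell types in the results below was not tested.

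Cd40lg, the target of the tolerising antibody, stayed below detection in every sample. Its only probe gave non-normalized signals of 225, 187 and 205 in naïve, tolerant and rejecting CD69+ cells and of 177, 176 and 146 in the corresponding CD69- cells. Each of these lay under the dimmest signal called detected on the same array, which ranged from 233 to 255. Detection p-values were 0.0395 in naïve and 0.0406 in rejecting CD69+ cells, the only 2 arrays under 0.05, against 0.127 in tolerant CD69+ cells and 0.169 to 0.514 in CD69- cells. The probe was therefore not well above background, no fold or test is given, and the genes most similar to Cd40lg across the arrays were not sought.

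**Figure D1:**
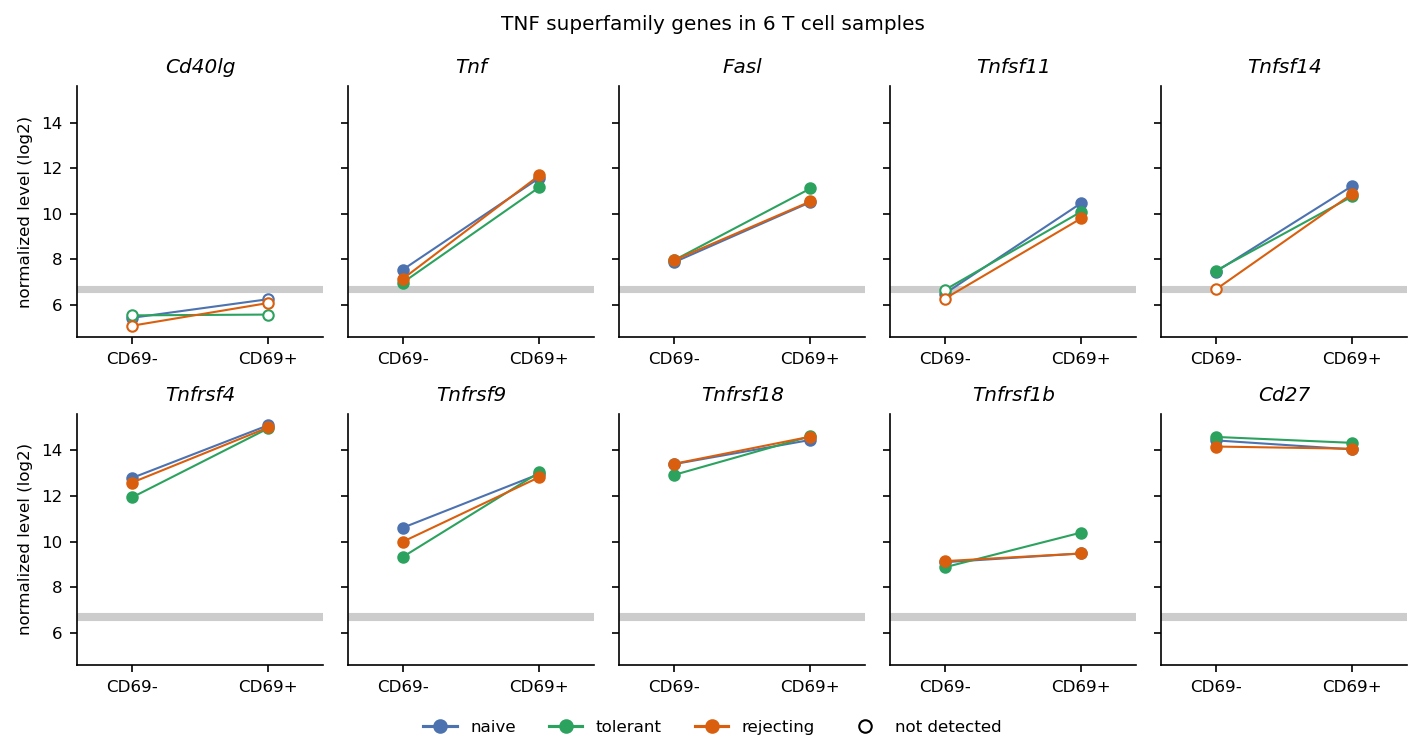
Normalized log2 level of each of the 10 genes in CD69- and CD69+ cells, with 1 point per array, lines joining the fractions of a status, open points for arrays on which the probe was not detected, and a grey band for the range of the lowest detected level on the 6 arrays. Cd40lg lies under the band on every array, while Tnf in CD69+ cells lies between 11.17 and 11.69.

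All 4 measured ligands were higher in CD69+ cells. Tnf, the founding cytokine of the family, stood at log2 levels of 11.58, 11.17 and 11.69 in naïve, tolerant and rejecting CD69+ cells and at 7.56, 6.99 and 7.16 in CD69- cells. The 3 CD69+ arrays were close together and far above all CD69- arrays. The difference was 4.24 (SE 0.14, limma adjusted p = 0.000491), an 18.9-fold higher level in CD69+ cells. Tnf ranked 34 by size of difference among all features tested.

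Tnfsf14 encodes LIGHT, a ligand of the herpesvirus entry mediator and the lymphotoxin β receptor. Its log2 levels were 11.23, 10.77 and 10.88 in naïve, tolerant and rejecting CD69+ cells and 7.47, 7.51 and 6.69 in CD69- cells, the rejecting CD69- array being the only 1 of 6 on which it was not detected. The groups did not overlap, and the difference was 3.74 (SE 0.20, limma adjusted p = 0.000765), or 13.3-fold.

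Tnfsf11 encodes RANKL, the osteoclast differentiation factor that activated T cells also make. It was detected on the 3 CD69+ arrays alone, at 10.48, 10.10 and 9.81 in naïve, tolerant and rejecting cells. CD69- levels of 6.51, 6.67 and 6.29 were not well above background, which makes the fold a lower bound of at least 10.9-fold higher in CD69+ cells (measured means 10.13 and 6.49, limma adjusted p = 0.00069). That bound, here as elsewhere, sets the level of the brighter side against the higher of the gene's own level and the lowest detected level on each dim array.

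Fasl, the death ligand of cytotoxic T cells, stood at 10.51, 11.11 and 10.54 in naïve, tolerant and rejecting CD69+ cells. In CD69- cells it stood at 7.87, 7.96 and 7.96, so the CD69- arrays lay close together and the tolerant array was the highest of the CD69+ arrays. The CD69 difference was 2.79 (SE 0.16, limma adjusted p = 0.000798), or 6.91-fold.

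The promoters of 3 of these ligands are shown as examples. The sequences are from RefSeq on GRCm38.p6, run from 250 bases before to 50 after the annotated start, and are written 5′ to 3′ on the gene's strand. Capitals mark matches on either strand to the core letters of NFAT sites (GGAAA), of AP-1 sites (TGANTCA) and of κB sites (GGG and CC with any 5 bases between them). A match is a description of the letters.
Tnf, chr17:35201958-35202257, minus strand: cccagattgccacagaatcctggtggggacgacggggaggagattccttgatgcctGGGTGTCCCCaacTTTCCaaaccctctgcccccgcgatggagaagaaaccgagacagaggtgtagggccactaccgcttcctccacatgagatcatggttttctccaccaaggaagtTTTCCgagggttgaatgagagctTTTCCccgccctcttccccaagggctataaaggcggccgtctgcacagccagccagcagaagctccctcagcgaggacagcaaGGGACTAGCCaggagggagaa
Tnfsf14, chr17:57194132-57194431, minus strand: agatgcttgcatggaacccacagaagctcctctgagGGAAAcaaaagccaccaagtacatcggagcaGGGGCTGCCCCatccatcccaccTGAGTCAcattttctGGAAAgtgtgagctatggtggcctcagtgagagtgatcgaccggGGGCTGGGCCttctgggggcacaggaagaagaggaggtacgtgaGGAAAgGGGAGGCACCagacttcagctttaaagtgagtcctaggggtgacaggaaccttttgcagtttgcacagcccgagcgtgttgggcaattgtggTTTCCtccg
Fasl, chr1:161788446-161788745, minus strand: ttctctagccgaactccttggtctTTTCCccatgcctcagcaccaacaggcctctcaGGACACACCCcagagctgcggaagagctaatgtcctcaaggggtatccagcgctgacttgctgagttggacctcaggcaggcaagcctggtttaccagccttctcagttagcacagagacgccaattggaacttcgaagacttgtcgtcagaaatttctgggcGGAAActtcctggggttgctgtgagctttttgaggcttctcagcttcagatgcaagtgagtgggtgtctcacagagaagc
With matches of a motif that share bases counted as 1 stretch, Tnf held 3 stretches of the NFAT core and 2 of the κB letters. Tnfsf14 held 4 and 3, and also 1 of the AP-1 letters. Fasl held 2 and 1. Tnfsf11, whose promoter is not shown, held 1 and 2, and no AP-1 letters.

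Of the 5 receptors, the 3 costimulatory receptors Tnfrsf4, Tnfrsf9 and Tnfrsf18 rose in CD69+ cells. Tnfrsf4 (OX40) stood at 15.10, 14.96 and 15.00 in naïve, tolerant and rejecting CD69+ cells and at 12.78, 11.93 and 12.58 in CD69- cells. The CD69+ arrays differed by 0.14 at most between statuses, and the tolerant CD69- array was the lowest of all. The CD69 difference was 2.59 (SE 0.18, limma adjusted p = 0.000952), or 6.02-fold.

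Tnfrsf9 (4-1BB), an activation-induced receptor, stood at 12.96, 13.03 and 12.83 in naïve, tolerant and rejecting CD69+ cells. Its CD69- levels were 10.608, 9.331 and 9.996, spread more widely than those of any other member (SD 0.64, n = 3) and again lowest in tolerant cells. The CD69 difference was 2.96 (SE 0.27, limma adjusted p = 0.00141), or 7.79-fold.

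Tnfrsf18 (GITR), which regulatory T cells carry at rest and other T cells acquire on activation, showed a smaller difference. It stood at 14.45, 14.61 and 14.60 in naïve, tolerant and rejecting CD69+ cells and at 13.39, 12.92 and 13.41 in CD69- cells. The groups did not overlap and the difference was 1.32 (SE 0.16, limma adjusted p = 0.00247), or 2.49-fold.

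Tnfrsf1b, the TNF receptor that responds best to membrane-bound TNF, gave no call. Its log2 levels were 9.48, 10.40 and 9.48 in naïve, tolerant and rejecting CD69+ cells and 9.10, 8.87 and 9.14 in CD69- cells. The groups did not overlap, but the tolerant CD69+ array stood far above the other 2 CD69+ arrays, and the difference of 0.75 (SE 0.27) had a limma adjusted p of 0.0628. Without the tolerant arrays the difference was 0.36 (limma adjusted p = 0.0447), and 9 of 13 alternatives put it past the threshold. Among the 9, no background correction and the authors' value table gave the same difference, 0.62, and are not separate checks.

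Cd27, a receptor present on resting T cells, was the only member measured with a negative difference. It stood at 14.04, 14.32 and 14.07 in naïve, tolerant and rejecting CD69+ cells and at 14.43, 14.58 and 14.16 in CD69- cells. The ranges overlapped, and the difference of -0.25 (SE 0.12, limma adjusted p = 0.120) did not pass.

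The second of the 2 annotated starts of Tnfrsf9 and the start of Cd27 are shown as examples from the receptors, with the same marks in capitals. The Tnfrsf9 start was picked because it held all 3 motifs.
Tnfrsf9, second start, chr4:150927749-150928048, plus strand: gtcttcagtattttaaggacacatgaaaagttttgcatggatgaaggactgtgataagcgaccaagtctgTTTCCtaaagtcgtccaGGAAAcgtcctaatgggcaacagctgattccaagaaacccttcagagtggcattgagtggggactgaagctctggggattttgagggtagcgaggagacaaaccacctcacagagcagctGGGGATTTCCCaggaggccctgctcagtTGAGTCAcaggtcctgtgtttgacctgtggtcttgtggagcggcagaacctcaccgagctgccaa
Cd27, chr6:125236978-125237277, minus strand: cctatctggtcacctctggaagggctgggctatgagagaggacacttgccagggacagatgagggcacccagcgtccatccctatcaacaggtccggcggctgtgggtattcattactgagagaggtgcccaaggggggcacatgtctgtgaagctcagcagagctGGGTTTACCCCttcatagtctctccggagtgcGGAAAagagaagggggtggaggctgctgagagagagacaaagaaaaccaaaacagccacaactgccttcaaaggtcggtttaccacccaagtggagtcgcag
The Tnfrsf9 start held 3 NFAT core, 1 AP-1 and 1 κB stretch, the κB stretch overlapping an NFAT core, and Cd27 held 1 NFAT core and 1 κB stretch. The first start of Tnfrsf9 and the start of Tnfrsf18 each held 2 NFAT core stretches and that of Tnfrsf4 held 1, all with neither AP-1 nor κB letters, while Tnfrsf1b, which was not called, held 1 κB stretch and no other match. Over the 10 promoter sequences found for 9 of the genes, 9 held the NFAT letters, 7 the κB letters and 2 the AP-1 letters. Among 32851 RefSeq promoters of the same length, 61.3% held the NFAT letters, 50.8% the κB letters and 7.81% the AP-1 letters.

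Counted together, 7 of the 9 measured members passed as higher in CD69+ cells and 0 as lower. Tnfsf11, among the 7, was detected on the CD69+ arrays alone, so it entered the test only through the fraction in which it was higher. It also enters the member median and the array count below. With detection required on all 6 arrays, 6 members passed as higher, Tnfrsf1b then among them. Over all 10679 features, 29.6% passed as higher and 33.1% as lower. The median difference was 2.79 over the members and -0.049 over all features. For 8 of the 9 members the 3 CD69+ arrays lay above all CD69- arrays, which held for 33.0% of all features, while 35.5% lay the other way round. The p-values measure how the difference varied between the 3 statuses, since the samples had no replicates.

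**Figure D2:**
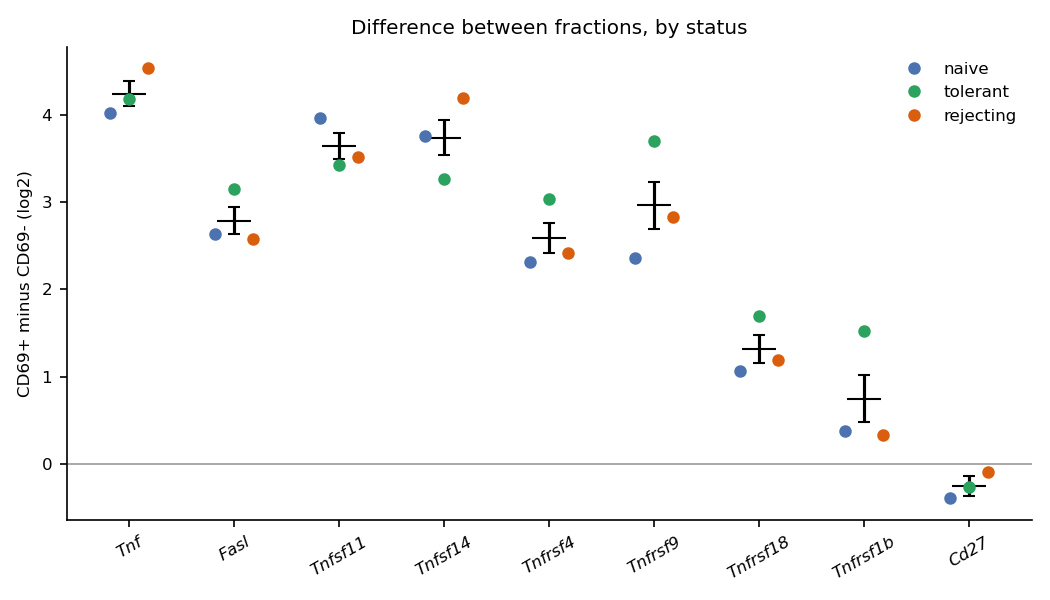
CD69+ minus CD69- log2 difference of the 9 measured members, with 1 coloured point per status, a black bar for the fitted difference and whiskers of 1 SE (n = 3 pairs of arrays). Tnf has the largest fitted difference of the members, 4.24, and the tolerant point is the highest for Fasl and for all receptors but Cd27.

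Within each status the same 7 genes stood apart. With a cut of 1.5-fold and a signal of 500 on the brighter array before normalization, 7 members were higher in CD69+ cells of naïve mice, 8 in tolerant and 7 in rejecting mice, where 19.6%, 16.6% and 18.4% of all features were. The member added in tolerant cells was Tnfrsf1b, at 2.87-fold. With array medians centred it passed in rejecting cells as well (0.61 on the log2 scale). Its second probe, under a signal of 500 on every array, gave 0.86 in naïve, 1.33 in tolerant and 0.37 in rejecting cells. Tnfrsf9 had differences of 2.35 in naïve, 3.70 in tolerant and 2.83 in rejecting cells. Tnfrsf4 followed the same order with 2.32, 3.03 and 2.42. Each of these compares 1 array with 1 and carries no test.

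Other detected probes gave the same direction between fractions for every member that had one. A second Tnf probe gave 4.43, and 2 further Tnfsf14 probes gave 3.76 and 3.48. The second Tnfrsf9 probe gave 3.52 and the second Tnfrsf18 probe 1.28. For Tnfrsf1b they gave 0.85 and 0.52, and for Cd27 -0.27 and -0.40.

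The statuses were compared next, over both fractions with fraction as a block. No member was called in any of the 3 contrasts. The smallest limma adjusted p of a member was 0.403 for tolerant against naïve (Tnf), 0.969 for rejecting against naïve (Tnfsf11 and Tnfsf14) and 0.380 for rejecting against tolerant (Cd27). Across all features the calls numbered 1 for tolerant against naïve (higher, 0.00936%), 0 for rejecting against naïve, and 2 for rejecting against tolerant (1 higher and 1 lower, each 0.00936%). For rejecting against naïve, limma gave 306 features higher (2.87%) and 201 lower (1.88%) at an unadjusted p under 0.05, none of them a member. Without the tolerant CD69- array the calls were 545 for tolerant against naïve and 574 for rejecting against tolerant (5.10% and 5.38% of features), and Tnfrsf1b was among them with 0.93 and -0.91 (limma adjusted p = 0.0484 and 0.0491). Without the tolerant CD69+ array they were 5 and 57, none of them a member. With 2 residual degrees of freedom, a p above the threshold does not show that the statuses were alike.

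Tnf was the only member with an unadjusted p under 0.05 in a status contrast. From the levels given above, it was lower in tolerant than in naïve cells by 0.41 among CD69+ and by 0.57 among CD69- cells, and the fitted difference was -0.49 (SE 0.17, limma adjusted p = 0.403). At that unadjusted threshold 6.96% of all features were higher and 5.11% lower in tolerant than naïve cells, and 6.11% were higher and 8.14% lower in rejecting than tolerant cells. Tnfrsf4 had a fitted difference of -0.49 (SE 0.22, limma adjusted p = 0.415) and Tnfrsf9 of -0.60 (SE 0.34, limma adjusted p = 0.464) in the same contrast. Cd27 had -0.34 for rejecting against tolerant (SE 0.14, limma adjusted p = 0.380). The contrasts share samples: tolerant cells enter 2 of them, as do naïve and rejecting cells.

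Differences between single arrays within a fraction were small for most members. In CD69+ cells, tolerant against naïve, Fasl was 1.52-fold and Tnfrsf1b 1.89-fold higher and no member was lower by 1.5-fold, where 8.92% of features were higher and 6.29% lower. Fasl was under 1.5-fold without background correction and in the authors' value table (0.56 on the log2 scale). Tnfsf11 was 1.59-fold lower in rejecting than in naïve CD69+ cells, where 1.68% of features were higher and 0.375% lower. Tnfrsf1b was 1.89-fold lower in rejecting than in tolerant CD69+ cells, where 4.77% were higher and 6.53% lower. These counts rest on 1 array a group and have no replicate check.

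In CD69- cells the members past both cuts were costimulatory receptors. Tnfrsf9 was 2.42-fold and Tnfrsf4 1.80-fold lower in tolerant than in naïve cells, where 0.684% of features were higher and 1.55% lower. Against the same tolerant array, rejecting cells were 1.59-fold higher for Tnfrsf9 and 1.57-fold higher for Tnfrsf4, where 2.71% of features were higher and 2.26% lower. With array medians centred both differences were under 1.5-fold (0.55 and 0.58 on the log2 scale), and that of Tnfrsf9 was also without background correction and in the authors' value table (0.57). Tnfrsf9 was also 1.53-fold lower in rejecting than in naïve CD69- cells, where 1.22% of features were higher and 0.712% lower, but not without background correction or in the authors' value table (-0.55). The second Tnfrsf9 probe differed by -1.24 between tolerant and naïve CD69- cells against -1.28 for the probe used, and by -0.29 between rejecting and naïve CD69- cells against -0.61. Tnfsf14, under the signal of 500 on all CD69- arrays and undetected in rejecting cells, was at least 1.57-fold lower in rejecting than in naïve and at least 1.62-fold lower than in tolerant CD69- cells. Tnfrsf18 differed by -0.47 between tolerant and naïve CD69- cells, short of 1.5-fold. With array medians centred it differed by -0.60, past 1.5-fold. Cd69 itself was lowest on the tolerant CD69- array, as given above, and its part in the receptor values was not tested.

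**Figure D3:**
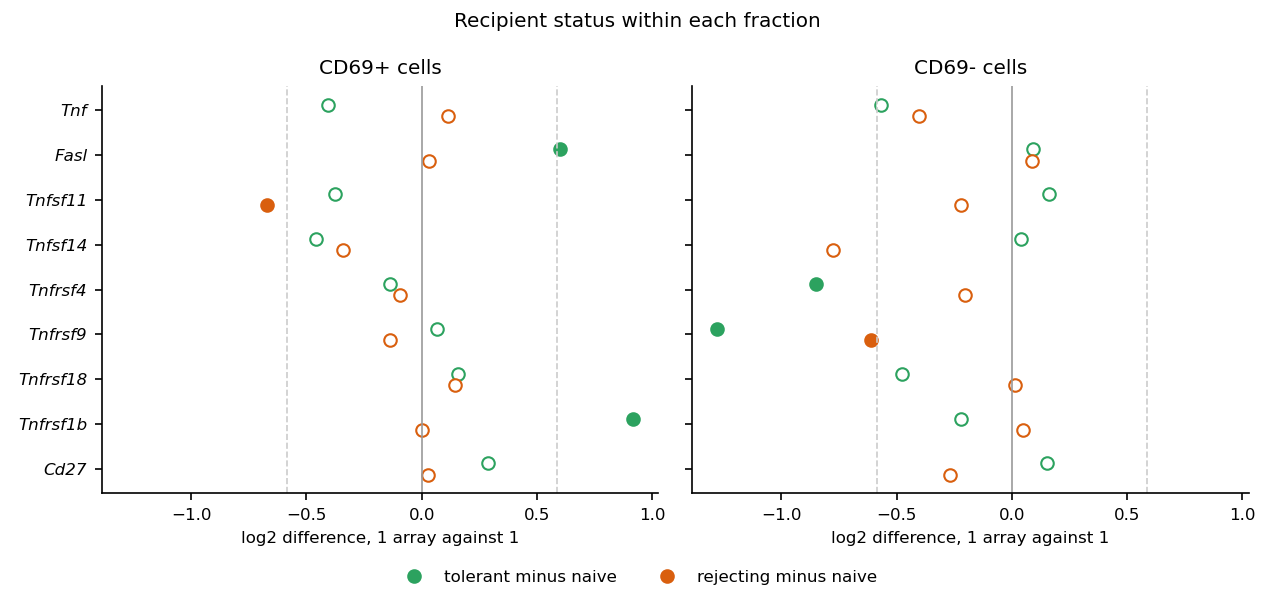
Log2 difference of tolerant (green) and rejecting (orange) from naïve cells for the 9 measured members, in CD69+ cells (left) and CD69- cells (right), each point 1 array against 1. Filled points are at least 1.5-fold apart (dashed lines) with a signal of at least 500. Fasl and Tnfrsf1b are filled to the right in tolerant CD69+ cells, and Tnfrsf4 and Tnfrsf9 to the left in tolerant CD69- cells.

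The study defined candidate tolerance genes by a level at least 1.5-fold higher in tolerant than naïve CD69+ cells, at least 1.5-fold higher than in tolerant CD69- cells, and a signal of at least 500. By the authors' value table, Tnfrsf1b met this with a ratio of 1.74 to naïve cells and 2.44 to CD69- cells. Fasl missed it there with 1.47 and met it with the levels computed here. The criteria were met by 1.55% of features in the authors' value table and 1.90% with the levels computed here. The criteria for candidate rejection genes set rejecting CD69+ cells against tolerant CD69+ cells, not naïve ones, and against rejecting CD69- cells. The cuts of 1.5-fold and a signal of 500 were the same. By the probe used, no member met them, while 1.82% of features did in the authors' value table and 2.69% with the levels computed here. Tnf came nearest to the ratio required, with 1.41 for rejecting over tolerant CD69+ cells in the authors' value table.

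The Tnfrsf1b result depended on the probe. Its 3 detected probes differed between tolerant and naïve CD69+ cells by 0.92, -0.033 and -0.74, the last of them a probe detected on 1 array, and only the brightest met the criteria. In Tnfsf14 the 2 brighter probes differed by -0.46 and -0.50 and the dimmest by -1.74, and the dimmest met the rejection criteria with a ratio of 1.87. Cd27 probes gave 0.29, 0.60 and 0.075. Fasl and Tnfsf11 had 1 probe each, so no second probe could be set beside them.

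**Figure D4:**
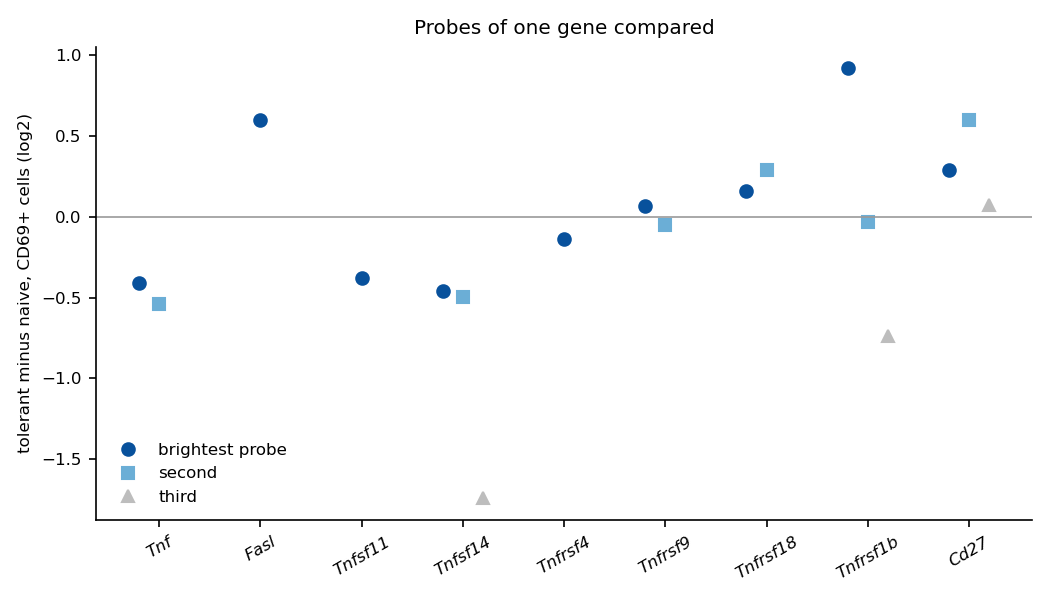
Tolerant minus naïve log2 difference in CD69+ cells for each detected probe of the 9 measured members, with probes ordered from brightest to dimmest by symbol and shade. The probes of Tnfrsf1b lie on both sides of 0, from 0.92 to -0.74.

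Markers of other cells also differed between the tolerant and naïve CD69+ samples. The natural killer cell genes Klrb1c, Klre1 and Fcer1g had a summed non-normalized signal of 1329 in tolerant CD69+ cells. In the other 5 samples the sum was 618 to 782. All 3 were detected in tolerant CD69+ cells, 2 in rejecting CD69+ cells and 1 in each remaining sample. The lower sums therefore include signals not well above background. Ncr1, Klra8 and Tyrobp were undetected throughout. The B cell genes Cd79b and Blk summed to 2488 in tolerant CD69+ cells against 805 to 1294 elsewhere. The 4 measured antigen presentation genes summed to 11136 in tolerant and 8311 in naïve CD69+ cells, within a range of 7457 to 18868 over all samples, with H2-Aa, H2-DMb1 and Ciita undetected. By log2 level, H2-Ab1, H2-Eb1 and Cd74 were each highest of all samples in tolerant CD69+ cells, at 10.44, 9.42 and 11.66. H2-DMa went another way, at 12.00 in tolerant CD69+ cells and highest in rejecting CD69- cells, at 14.29. The part of these marker genes in the Fasl and Tnfrsf1b values was not tested.

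Genes around the members in the pathway were read from lists in the CD69 comparison. In that comparison 29.6% of all features passed as higher and 33.1% as lower, which the counts of each list can be set against. Of 7 other TNF superfamily ligands measured, 2 rose, 1 fell and 4 did not pass, with a median of 0.25. Cd70, the ligand of Cd27, was at least 4.94-fold higher in CD69+ cells (limma adjusted p = 0.000776) and undetected on all CD69- arrays. Lta (lymphotoxin α) rose by 2.81 (limma adjusted p = 0.000653), and Ltb (lymphotoxin β), with which it forms a membrane heterotrimer, fell by 0.64 (limma adjusted p = 0.00818).

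Several of these genes lie next to each other. In the RefSeq gene table of GRCm38.p6, Ltb, Tnf and Lta are neighbours on chromosome 17 with no protein-coding gene between them, and their CD69 differences were -0.64, 4.24 and 2.81. Tnfsf9, Cd70 and Tnfsf14 are neighbours elsewhere on chromosome 17, where Tnfsf9 differed by -0.095 (limma adjusted p = 0.758), Cd70 was at least 4.94-fold and Tnfsf14 13.3-fold higher. Tnfrsf4 and Tnfrsf18 are neighbours on chromosome 4, with 2.59 and 1.32. Tnfsf9 was named for its position, after its value was seen.

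Among 12 other TNF receptor family genes measured, 4 rose and 4 fell, with a median of 0.0020, against 6 and 4 with array medians centred. Tnfrsf21 (death receptor 6) was at least 3.20-fold and Cd40, the receptor of CD40 ligand, at least 2.31-fold higher in CD69+ cells (limma adjusted p = 0.00069 and 0.000708). Both were undetected on all CD69- arrays, and Cd40 stood at 7.87, 7.91 and 7.88 in naïve, tolerant and rejecting CD69+ cells. Tnfrsf26 fell by 2.49 (limma adjusted p = 0.00152). Tnfrsf14, the receptor of LIGHT, was at least 1.11-fold lower (limma adjusted p = 0.00127) and undetected in CD69+ cells. It was detected on 2 arrays, its level of 6.45 in tolerant CD69- cells lying under that array's lowest detected level of 6.67.

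Of 16 adaptors and brakes measured, 3 rose and 8 fell, with a median of -0.57. Traf5, an adaptor of OX40 and other costimulatory receptors, fell by 1.27 and Map3k14, the kinase NIK of the non-canonical NF-κB pathway, by 1.11 (limma adjusted p = 0.00146 and 0.00244). Cyld, a deubiquitinase that restrains NF-κB, fell by 0.86 and Birc2, the ubiquitin ligase cIAP1, by 0.85 (limma adjusted p = 0.00418 and 0.0130). With array medians centred in place of quantiles, Traf2, Casp8 and Ikbkg lost their calls and 5 genes fell.

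Of 5 shedding and membrane cleavage genes measured, Rhbdf1 was at least 1.34-fold higher (limma adjusted p = 0.00171) and Rhbdf2 at least 1.31-fold lower in CD69+ cells (limma adjusted p = 0.0415). Both encode inactive rhomboids that escort the TNF sheddase ADAM17. Rhbdf2 was detected on 2 arrays and stood at 6.13 in naïve CD69+ and 6.24 in naïve CD69- cells. The latter lay under that array's lowest detected level of 6.56, so the bound for Rhbdf2 takes in an undetected CD69- level. Among 7 mRNA stability factors, 2 rose and 4 fell, against 2 and 1 with array medians centred. Zfp36 (tristetraprolin), which destabilises Tnf mRNA through its AU-rich element, fell by 2.22 from 14.38, 14.13 and 14.41 in naïve, tolerant and rejecting CD69- cells to 11.73, 12.29 and 12.24 in CD69+ cells (limma adjusted p = 0.00117). Rc3h1 and Rc3h2 (roquins) fell by 0.60 and 0.56 (limma adjusted p = 0.0270 and 0.0314), though neither passed with array medians centred, nor did Zfp36l1, and Rc3h1 did not pass without background correction. Elavl1 (HuR), a stabilising factor, rose by 0.45 (limma adjusted p = 0.0252).

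Of 10 costimulators and related surface receptors measured outside the TNF families, 4 rose and 3 fell, with a median of 0.17. With array medians centred 5 rose and 1 fell, Cd84 and Ly9 losing their calls. Slamf1 rose by 2.33 (limma adjusted p = 0.000806), Icos by 1.23 (limma adjusted p = 0.00166) and Ctla4 by 1.12 (limma adjusted p = 0.00176). Slamf6 fell by 1.25 (limma adjusted p = 0.00172). No gene of these 6 lists was called in any status contrast.

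**Figure D5:**
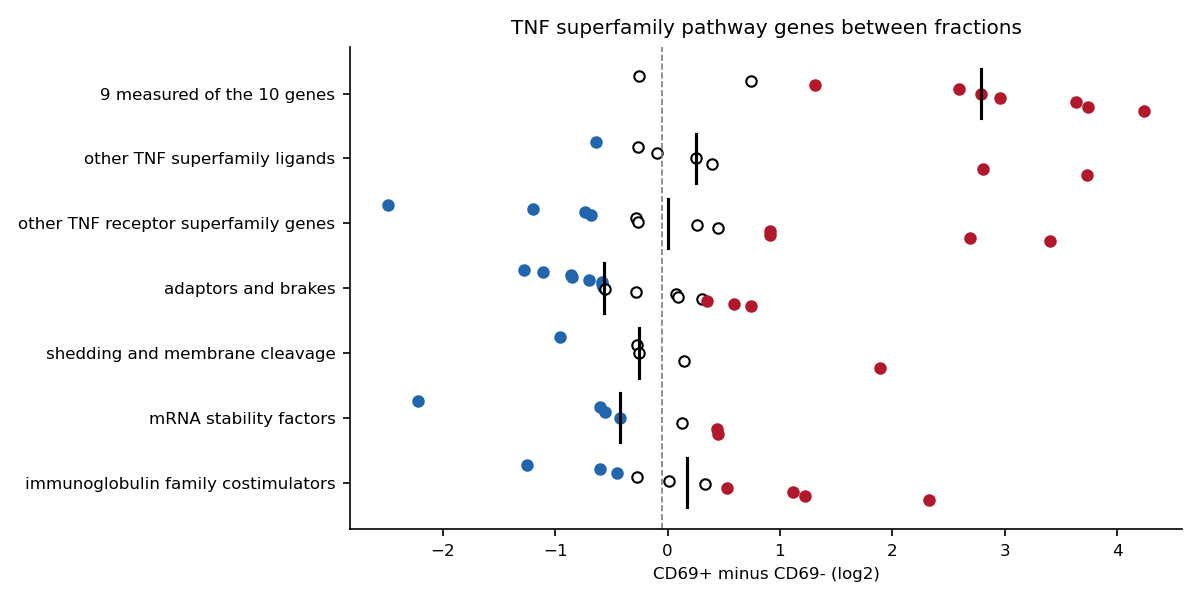
CD69+ minus CD69- log2 difference of every measured gene of the members and of 6 related lists, with 1 point per gene, red for genes that rose, blue for genes that fell and open for genes that did not pass, a black bar at the list's median and a dashed line at the median of all features, -0.049. The medians run from -0.57 for adaptors and brakes to 2.79 for the members.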

How the data were processed

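Each of 6 samples was measured on 1 single-colour array with 0.55 µg of RNA as input, per the labels' protocols. The deposited non-normalized table holds signal intensity and a detection p-value per probe, per the file headers. The authors' value table holds processed intensities, with a median of 168.3 in every column and ranks identical to the signals. Its method is not given in the sources used here, beyond GenomeStudio 2009.2 in the submitters' processing notes. Its CD69 differences matched those computed here without background correction (Tnf 3.35 and Tnfrsf1b 0.62 with either). These alternatives are therefore not separate checks. From the signals, limma 3.58.1 (R 4.3.3) gave log2 levels: normexp correction with controls inferred from the detection p-values, offset 16, quantile normalization. Features had a detection p under 0.01 on at least 1 array (8339 named, 2340 unnamed). CD69 fractions were compared with status as a block, since each status gave both fractions, and statuses with fraction as a block, with lmFit and eBayes, two-sided, Benjamini-Hochberg over all features, threshold 0.05. The fits were tested on simulated data. All measured members were examined in every comparison, though not every status value is printed, and of each list at most the 4 largest called differences. Members and lists were chosen with earlier results of these data known. No slide or date was at hand, so batches could not be tested. Array number limits the precision.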

Additional observations from a re-analysis of the deposited data

Results flagged for a closer look

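By the probe used, Tnfrsf9 and Tnfrsf1b each differed one way in CD69+ cells and the other way in CD69- cells, and the difference between fractions was not tested. For Tnfrsf9, tolerant minus naïve was 0.068 in CD69+ and -1.28 in CD69- cells on the log2 scale. Rejecting minus tolerant for the same gene was -0.21 in CD69+ and 0.67 in CD69- cells. For Tnfrsf1b, tolerant minus naïve was 0.92 in CD69+ and -0.22 in CD69- cells, while rejecting minus tolerant was -0.92 and 0.27. The tolerant arrays enter each of these values, and each value rests on 1 array against 1. The second probes kept 1 sign in both fractions for tolerant minus naïve, with -0.054 and -1.24 for Tnfrsf9 and -0.033 and -0.50 for Tnfrsf1b. For rejecting against tolerant they went opposite ways in the fractions, as the probes used did. For Tnfrsf9 the levels in rejecting and tolerant cells were 12.82 and 12.93 among CD69+ and 9.61 and 8.66 among CD69- cells. For Tnfrsf1b they were 7.72 and 8.17 among CD69+ and 7.34 and 6.84 among CD69- cells.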

How the results depend on the processing

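The 7 members called between fractions kept their direction and their call under each of the 11 to 13 alternatives in which they were measured, with adjusted p from 6.08e-06 to 0.0123, and 6 to 8 members passed as higher. Where 6 passed, the filter asked for detection on all 6 arrays, which Tnfsf11 and Tnfsf14 do not meet. Tnfrsf1b had adjusted p from 0.0164 to 0.120, and Cd27 passed under the intensity trend (adjusted p = 0.0276). All features called numbered 6699, against 5438 to 9761 under the alternatives and 4590 to 7180 without 1 status. Centring array medians moved the median CD69 difference of all features from -0.049 to 0.092 and the share of calls that were higher from 47.2% to 58.1%. In the status contrasts, rejecting against tolerant gave 2 calls in the analysis reported, 23 without background correction and with the authors' value table, 13 with offset 50, 14 with detection on all arrays, 87 with an intensity trend and 0 with no replicate block. Tolerant against naïve gave 1, and 0, 6 and 0 under the last 3. The replicate block is the other factor of the design, since the samples carry no replicate numbers; without it no member was called in a status contrast. Leaving out each array in turn gave 0 to 545 calls for tolerant against naïve and 1 to 574 for rejecting against tolerant. The highest counts came without the tolerant CD69- array, where Tnfrsf1b was called (0.93, adjusted p = 0.0484, and -0.91, adjusted p = 0.0491) beside 5.10% and 5.38% of features. There the lone tolerant array was assumed to vary like the others. Without the tolerant CD69+ array the counts were 5 and 57, and no member was called. The authors' value table gave the same differences as no background correction and is not a separate check. With either, members at least 1.5-fold apart fell from 2 to 1 for tolerant against naïve CD69+ cells. They fell from 1 to 0 for rejecting against naïve CD69- cells and from 2 to 1 for rejecting against tolerant CD69- cells. With medians centred they were 0 in the last of these and 2 for rejecting against tolerant CD69+ cells. For tolerant against naïve CD69- cells they then rose from 2 to 3, Tnfrsf18 being added. With the second-brightest probe, chosen after seeing the data, tolerant minus naïve in CD69+ cells was -0.033 for Tnfrsf1b. The causes were not tested.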
